A study of Mus musculus with 2 samples.

Results

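A single 96-well plate of cones from uninjected *Pde6c*.GFP retinae was compared between its sides, wells of columns 1 to 6 against wells of columns 7 to 12. The well in each deposited cell name gave the side, and no measured value was used to choose the cells. The table held 85 such cells of the 151 in the series, 42 in columns 1 to 6 and 43 in columns 7 to 12, and 82 were kept (39 and 43). The mice carried the *cpfl1* mutation of *Pde6c* and the *Chrnb4*.eGFP reporter on C57BL/6, in which the *Chrnb4* promoter drives GFP in cones, and were taken at PN24 (postnatal day 24) without injection. Both sides shared genotype, age, tissue, papain dissociation and sort for live GFP-positive cells, 1 cell per well. The labels name 1 sample and give neither the number of animals on the plate nor what distinguished its sides. Animal, sort order, amplification pool and any other factor that changed between columns 6 and 7 therefore cannot be told apart from the side.

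Cones are the photoreceptors of daylight and colour vision. In the mouse they carry the short-wave opsin *Opn1sw*, the middle-wave opsin *Opn1mw* or both, and their light response passes through a cone-specific transducin, a phosphodiesterase whose catalytic subunit is *Pde6c*, and a cyclic nucleotide-gated channel. They are packed with mitochondria and depend on glycolysis, and loss of *Pde6c* function leads to their early death. Rods, their far more numerous neighbours, use a parallel set of proteins that includes the rod transducin *Gnat1*.

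All 82 cells held cone transcripts. Of 11 cone marker genes, 5 to 11 had a count in each cell of columns 1 to 6 (median 8) and 6 to 11 in each cell of columns 7 to 12 (median 9). The lowest sums of these markers in a cell were 6 and 14 counts, respectively. They took 0.406% to 7.46% and 0.359% to 9.83% of a cell's counts. Rod markers reached 7.73% and 3.56% in single cells, and Müller glia markers 3.93% and 2.38%. These counts alone do not establish that every cell was a cone. The kept cells of columns 1 to 6 held 868, 8768 and 74850 counts (lowest, median and highest), and those of columns 7 to 12 held 854, 7131 and 97803. The median number of genes with a count was 1818 and 1708, respectively. The sides were thus close in depth, and together they held 544424 and 564351 counts. The mitochondrial share of counts had a median of 1.13% in columns 1 to 6 and 0.754% in columns 7 to 12, and the 3 cells removed for more than 5% mitochondrial counts all lay in columns 1 to 6. Each column held 5 to 8 kept cells, with column medians of 3232 to 16772.5 counts. Single counts made up 56.9% of all gene and cell entries above 0. For example, *Opn1mw* had exactly 1 count in 25 of 39 and 28 of 43 cells, and 10 or more counts in 10 and 12 cells, so a share of cells with a count says little about the level of a gene.

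Wells of the same row and 6 columns apart (A01 with A07, B02 with B08) were not independent of each other, although they lay on different sides. Over 42 such pairs of deposited wells, the log2 total counts of the 2 wells had a Pearson's r of 0.885 and a Spearman's correlation of 0.893, and 32 pairs differed by no more than 2-fold. The deepest pair was C06 with 75316 counts and C12 with 98441 counts. Of the 11 wells for which the table held no cell, 10 formed 5 such pairs. Depth and missing cells therefore followed the position within a side rather than the side.

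Gene content was shared within these pairs as well. Of 1924 genes found in exactly 2 of the 85 wells, 173 (8.99%) were found in 2 wells of the same row and 6 columns apart, which made up 1.18% of possible pairs. Possible pairs were counted without regard to depth, in which wells 6 columns apart were alike. Among the 39 pairs with both wells kept, 34 held at least 1 gene with 50% or more of all its counts in that pair and at least 3 counts in each well. There were 1284 such genes, and they took 11.2% of counts in columns 1 to 6 and 11.5% in columns 7 to 12. C06 and C12 alone shared 275 of them. Across the profiles of 8823 genes, the well 6 columns away was the most similar of all wells on the other side for 58 of 78 wells, and for 54 of 64 after every cell was thinned to the same number of counts. A01, for example, held 149 counts of *1700095B10Rik* and 133 of *Hid1*, and A07 held 154 and 170, whereas the highest counts in any other well were 16 and 48. Both genes were named after their values were seen. The reason for this sharing was not tested. The counts of genes beyond the limit and of genes consistent over rows and columns are given below both for all wells and for only the deeper well of each pair, and other values are for all wells unless stated.

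The sides differed in a step between columns 6 and 7. Mean profiles of 2 columns of the same side had a Pearson's r of 0.572 to 0.645 (median 0.613, 30 pairs, over 8823 genes), against 0.501 to 0.559 (median 0.529) for the 30 pairs across the sides that were not 6 columns apart. The 6 pairs of columns that were 6 apart reached 0.586 to 0.648 (median 0.629), as high as columns of the same side. Genes, cells and columns share a library, so these values describe the plate and carry no p-value.

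**Figure D1:**
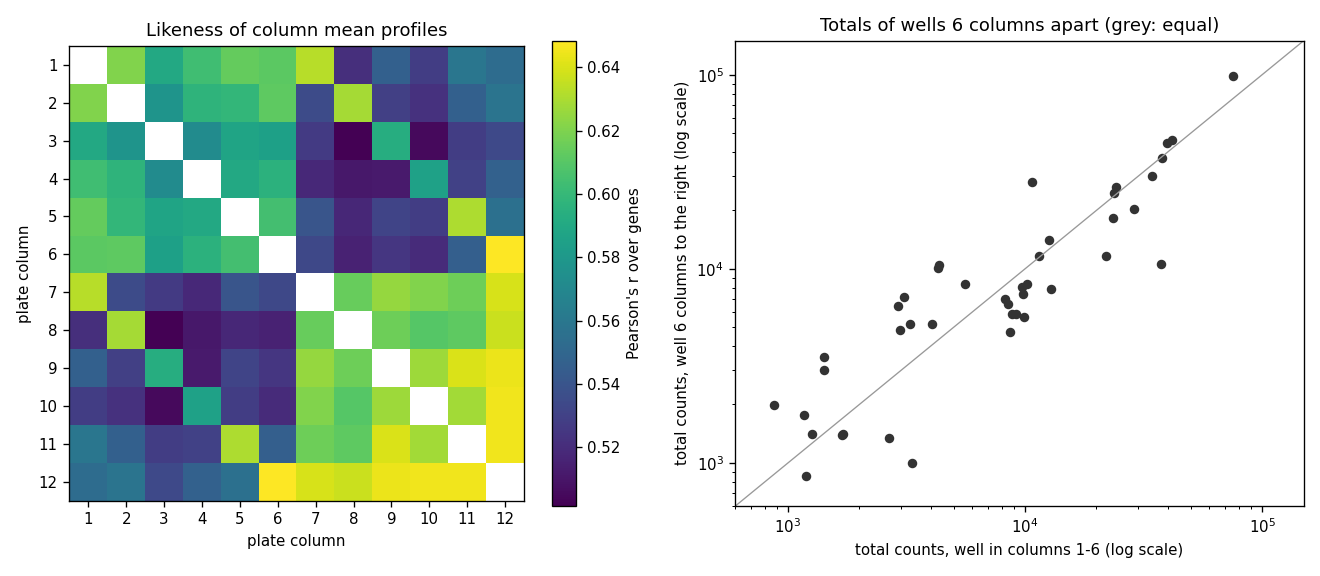
Left, Pearson's r between the mean profiles of every 2 plate columns over 8823 genes (diagonal white). Right, total counts of the well in columns 1 to 6 against the well 6 columns to its right, on log axes, for 42 pairs. The matrix shows one block per side and a stripe of high values at columns 6 apart, and the totals lie along the line of equality (Pearson's r 0.885 on the log2 scale).

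The log-fold used throughout is the natural log of the mean counts per 10000 plus 1 in columns 7 to 12, minus the same in columns 1 to 6, and a size limit of 0.3 was applied to the 8823 genes that were detected (1 count or more) in 10% of the cells of one side or more. Beyond this limit 1296 genes (14.7%) were higher in columns 7 to 12 and 1403 (15.9%) were higher in columns 1 to 6. A gene that was also higher on the same side in each of the 8 plate rows was far rarer: 235 genes (2.66%) were so in columns 7 to 12 and 193 (2.19%) in columns 1 to 6. Column means did not overlap between the sides for 220 genes (2.49%) that were higher in columns 7 to 12 and 196 (2.22%) that were higher in columns 1 to 6, and 219 genes met both the row and the column criterion. With 1 library and 1 plate, these counts have no test and describe this plate. The calls rose with depth, from 6.33% of genes beyond the limit among genes with 4 to 15 counts in all to 54.6% among those with 81 or more.

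When only the deeper well of each pair 6 columns apart was used (20 and 23 cells), 1727 genes were higher in columns 7 to 12 and 1835 in columns 1 to 6, of which 992 and 1009 were among those called in all cells. The same direction in all 8 rows was then seen for 79 and 21 genes, and non-overlapping columns for 92 and 45, with fewer cells in each row and column. When instead the genes concentrated in 1 pair were left out, 1351 and 1447 genes lay beyond the limit, 233 and 194 of them with the same direction in all 8 rows.

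The direction of genes chosen in one set of rows was largely kept in the other. Of 1392 genes higher in columns 7 to 12 in rows A to D, 1047 (75.2%) were also higher there in rows E to H, where 46.7% of all genes were, and of 1515 genes higher in columns 1 to 6, 1080 (71.3%) kept their direction against 53.1% of all genes. The median log-fold of the former fell from 0.53 where they were chosen to 0.20 in the other rows, and that of the latter went from -0.53 to -0.16. Most were thus not beyond the limit again: 559 (40.2%) and 545 (36.0%) were, against 15.7% and 16.1% of all genes. In the opposite direction, 119 and 141 were beyond it. With rows E to H used for the choice, 74.5% and 72.4% kept their direction in rows A to D. Across all 8823 genes the log-folds of the upper and lower rows had a Pearson's r of 0.370 and a Spearman's correlation of 0.374. These rows belong to the same plate and are not replicates.

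**Figure D2:**
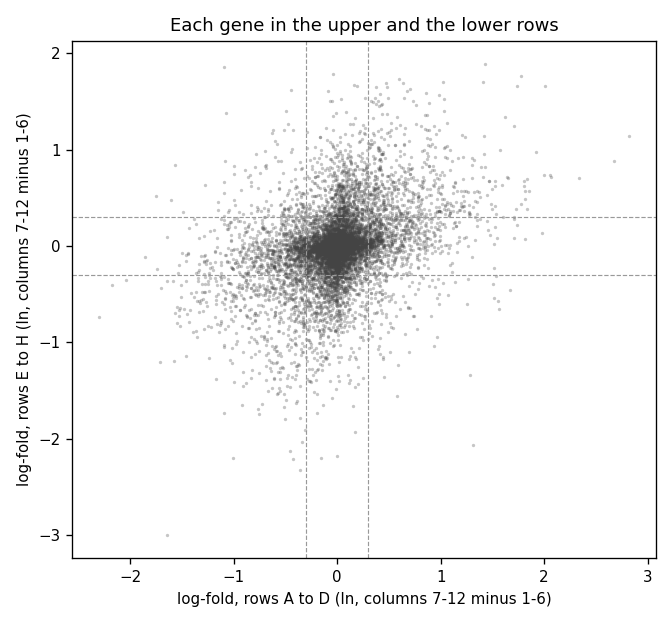
Log-fold of each of 8823 genes in rows A to D (horizontal) and rows E to H (vertical), natural log, with dashed lines at the limit of 0.3. The cloud is elongated along the diagonal (Pearson's r 0.370), and most genes lie within the limit in both.

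The ratio of genes of one side to genes of the other was also taken in single wells. For each well, counts of genes more than 0.7 higher in columns 7 to 12 were divided by counts of genes more than 0.7 higher in columns 1 to 6, with both sets chosen in the 4 rows that did not include the well. In rows E to H the log2 ratio was -2.19 to -0.47 (median -1.26) in 19 cells of columns 1 to 6 and -0.87 to 1.90 (median 0.83) in 22 cells of columns 7 to 12. In rows A to D it was -0.95 to 0.93 (median -0.41) in 20 cells and 0.27 to 2.96 (median 1.54) in 21 cells. The ranges overlapped in either set of rows, and the medians lay on opposite sides of 0.

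**Figure D3:**
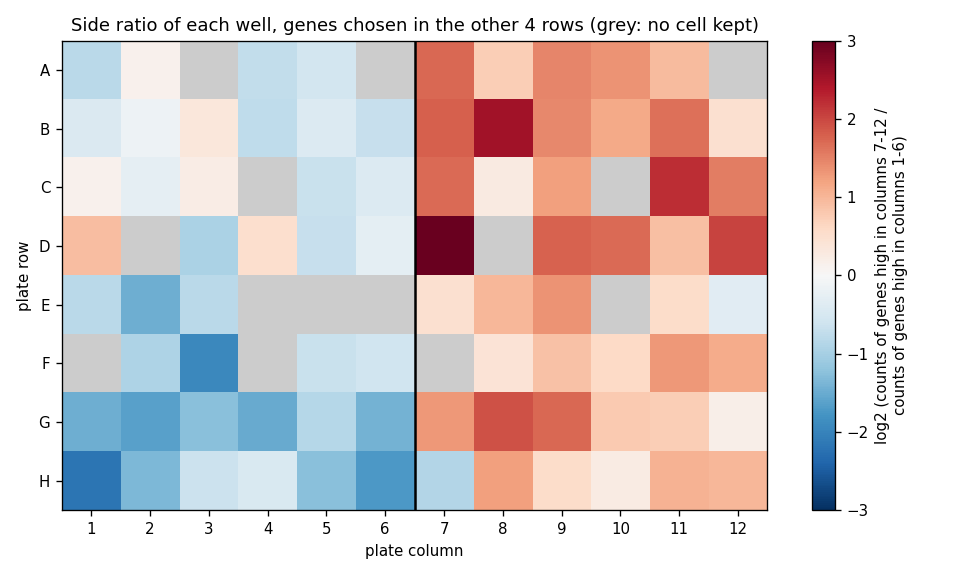
The plate as laid out, 8 rows by 12 columns, each well coloured by the log2 ratio of counts of genes high in columns 7 to 12 to counts of genes high in columns 1 to 6, both chosen in the other 4 rows; grey wells held no kept cell. Wells left of the line between columns 6 and 7 are mostly blue (medians -0.41 and -1.26 in the upper and lower rows) and wells right of it mostly red (1.54 and 0.83).

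Many genes had counts on one side and none on the other. With a rule chosen after the values were seen, 90 of 3828 genes (2.35%) were detected in 25% or more of the cells of columns 1 to 6 and in no cell of columns 7 to 12, and 81 (2.12%) showed the reverse. They held a median of 52.5 and 52 counts, and up to 625 and 382, and the rule itself sets a lowest number of cells. With a floor of 3 cells, a count of 0 in 43 cells allows a share of cells with a count of up to 6.98%, and a count of 0 in 39 cells up to 7.69%, as counting error only.

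*Lcn2*, which encodes lipocalin 2, an iron-carrier-binding protein of the acute-phase response, gave the lowest log-fold of all (-2.52). It had 547 counts (95% Poisson interval 502 to 595) in 31 of 39 cells of columns 1 to 6 and none in the 43 cells of columns 7 to 12. With a floor of 3 counts over the side in place of none, it was 189-fold higher per total count. That ratio leaves out the counting error of the 547 counts. Its means in columns 1 to 6 were 3.11, 3.81 and 63.3 counts per 10000 (lowest, median and highest column), and every one of columns 7 to 12 was at 0. One well, H04, held 364 of its counts, and without that well the log-fold was -1.62. The gene lies on the minus strand at chr2:32384633-32388252 in GENCODE vM21 (GRCm38).

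*Mrpl12*, a protein of the large subunit of the mitochondrial ribosome, gave the highest log-fold (2.28). It had no count in columns 1 to 6 and 382 counts (345 to 422) in 22 of 43 cells of columns 7 to 12. Against the same floor it was 122.8-fold higher, again without the counting error of the 382 counts. The 6 column means were 0 on one side and 0.894, 2.58 and 35.5 per 10000 (lowest, median and highest) on the other. It lies on the plus strand at chr11:120484613-120489065 and is overlapped on the other strand by *Gm16755*. The counting was not stated to use strand, so reads of such partners cannot be told apart.

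Among the other genes with no count in columns 7 to 12, *Nudt2*, a hydrolase of diadenosine tetraphosphate, had 625 counts in 23 cells, but 596 of them lay in D06 and the log-fold went from -1.82 to -0.83 without that well. *Dnajc24*, a co-chaperone needed for diphthamide synthesis, had 243 counts in 21 cells, of which D06 held 160, and the log-fold of -1.25 became -0.91 without it. *Mvd*, an enzyme of the mevalonate pathway to cholesterol, had 193 counts in 22 cells, with 76 in F03. On the other side, *Fam213b* had 233 counts in 24 cells, *Acot7*, an acyl-CoA thioesterase, had 154 in 27 cells, *Nubp1*, of cytosolic iron-sulphur protein assembly, had 152 in 19 cells, and *Arl6ip4* had 151 in 32 cells, all with none in columns 1 to 6. Single wells held many of these counts as well: G10 held 151 of *Fam213b* (log-fold 1.15, and 0.89 without that well) and 77 of *Acot7* (1.06 and 0.93), and B08 held 109 of *Nubp1* (1.08 and 0.54) and 87 of *Arl6ip4* (1.32 and 1.03). Apart from *Dnajc24*, the lowest member of its list, and the leading genes, these were named by their counts after the values were seen.

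The leading genes were those detected in 25% or more of the cells of one side, with the same direction in all 8 rows and the 12 highest and 12 lowest log-folds. Higher in columns 7 to 12 were, after *Mrpl12*, *Alkbh1* (2.13), a dioxygenase that demethylates nucleic acids, *Eno2* (1.77), the neuronal enolase of glycolysis, and *Surf1* (1.68), an assembly factor of respiratory complex IV. They were followed by *Mrps25* (1.61), of the small mitochondrial ribosomal subunit, *Carf* (1.60), a calcium-responsive transcription factor, *Ndufs8* (1.54), a core subunit of complex I, *AI413582* (1.53), *Cep44* (1.52), a centrosomal protein, *Ncl* (1.51), the nucleolar protein nucleolin, and *Atp6v1e1* (1.47), a subunit of the vacuolar proton pump. The group mixed mitochondrial, glycolytic, nucleolar and centrosomal genes.

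*Eno2* was found in every column of 7 to 12. Its means in columns 7 to 12 were 7.96, 8.37, 3.85, 2.64, 2.17 and 5.96 counts per 10000, and the highest in columns 1 to 6 was 0.157. It had 278 counts (246 to 313) in 34 of 43 cells against 3 counts in 3 of 39 cells, a ratio of 89.4 per total count (95% counting interval 30.3 to 436). *Ndufs8* had 543 counts in 33 cells against 41 in 11 cells, with column means of 3.003 to 18.3 against 0 to 1.98. *Surf1* had 226 against 8 counts, with column means of 1.41 to 10.7 against 0 to 0.169. For these 3 genes no column of one side reached the lowest of the other.

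Higher in columns 1 to 6 were, after *Lcn2* and *Nudt2*, *Tmem108* (-1.77), *Vldlr* (-1.65), a receptor for lipoproteins and reelin, *Trp53* (-1.62), the transcription factor p53, *Eif3h* (-1.43), a subunit of translation initiation factor 3, and *Ddx24* (-1.41), an RNA helicase. They were followed by *B230118H07Rik* (-1.34), *Psmd9* (-1.33), an assembly chaperone of the proteasome, *Man2a2* (-1.29), a mannosidase of the Golgi, *Gm29152* (-1.27) and *Ddrgk1* (-1.27), which acts in ufmylation at the endoplasmic reticulum. The group again had no single role.

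*Tmem108* had 253 counts (223 to 286) in 29 of 39 cells against 23 (14.6 to 34.5) in 10 of 43 cells, a ratio of 11.4 per total count, with column means of 1.40 to 23.4 against 0 to 0.731. *Ddx24* had 241 against 5 counts, a ratio of 49.96 (21.1 to 155), with column means of 0.880 to 8.20 against 0 to 0.349. *Gm29152* had 274 against 1 count, but G02 held 189 of them. *Trp53* rested on 1 shallow well: A02 held 31 of its 51 counts in columns 1 to 6, and the log-fold of -1.62 became -0.14 without that well. With A02 included, its direction was the same in all 8 rows, and it had a count in 16 of 39 cells against 2 of 43.

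The 24 leading genes were chosen for large log-folds in these same cells, so their direction in subsets of them is not independent evidence. With only the deeper well of each pair, all 24 leading genes kept their direction and stayed beyond the limit. The same held under the other alternatives in cells, scaling, rows and columns except 2, in which *Trp53* alone came within the limit, at -0.21 without rows A and H and -0.15 without column 2. Without the well that held the most of its counts, each of the others also stayed beyond the limit. *Psmd9* then lay at -0.55, *Carf* at 0.74 and *AI413582* at 0.83. The well left out was chosen by counts, so it need not be the one that set the mean. For example, *Eif3h* stayed at -1.43 without C06, while its mean in column 5 was 14.3 per 10000.

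**Figure D4:**
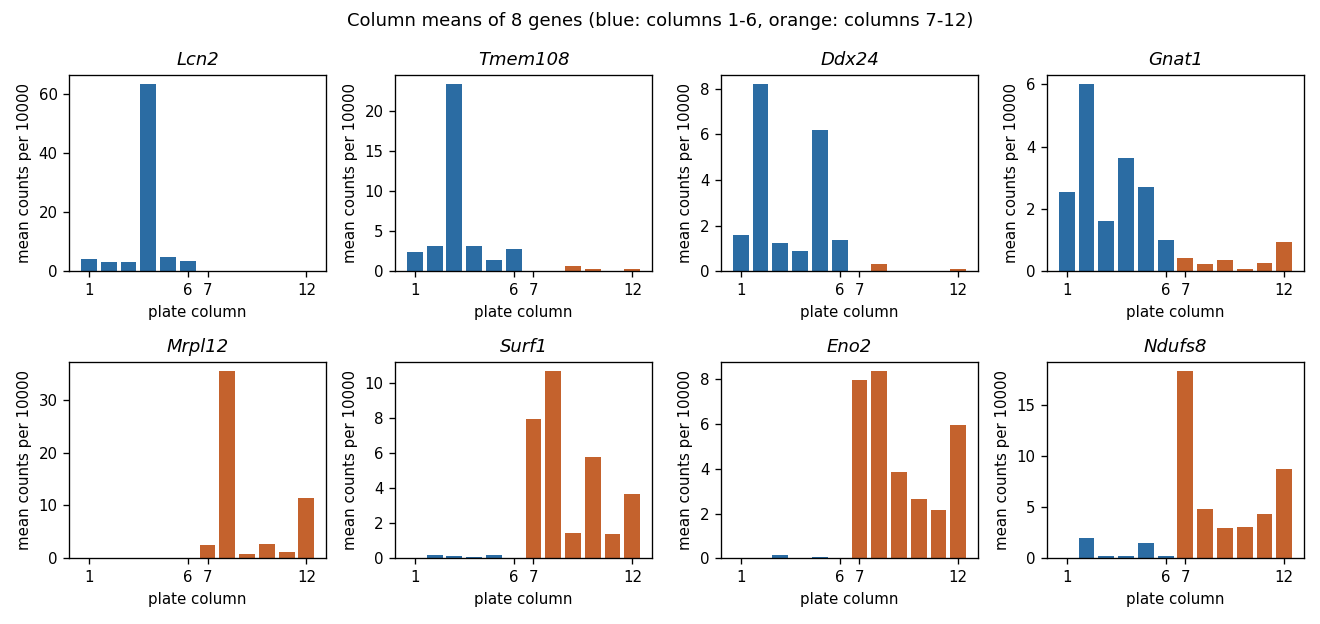
Mean counts per 10000 in each of the 12 plate columns for 4 genes higher in columns 1 to 6 (top: *Lcn2*, *Tmem108*, *Ddx24*, *Gnat1*) and 4 higher in columns 7 to 12 (bottom: *Mrpl12*, *Surf1*, *Eno2*, *Ndufs8*); bars start at 0 and each panel has its own scale. All 8 genes change between columns 6 and 7, and single columns stand out, such as column 4 for *Lcn2* at 63.3.

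Gene families did not move to one side as a block. Lists of genes with a shared role were described by their members beyond the limit and their median log-fold, beside a median of -0.02 and 30.6% of genes beyond the limit in either direction over all 8823 genes. Among genes with 81 or more counts the share was 54.6%, and numbers of members in lists of well-detected genes are to be read against it. Of 36 lists with at least 5 genes passing the detection filter, none had a median beyond 0.3 in either direction (range -0.28 to 0.30), and 32 had members beyond the limit on both sides. With a pseudocount of 0.1 in place of 1, which enlarges the log-folds of low genes, 11 of the 36 medians lay beyond 0.3.

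The cone's own light-response genes were mostly similar or higher in columns 7 to 12. Of the 11 cone markers, all of which passed the filter, 5 were beyond the limit in columns 7 to 12, none in columns 1 to 6, and none had the same direction in all 8 rows (median log-fold 0.24). Over all genes, 14.7% and 15.9% were beyond the limit on these sides. In either direction the share was 45.5% of the 11, against 54.6% of genes with 81 or more counts. The markers as a whole took 2.49% of counts in columns 1 to 6 and 2.70% in columns 7 to 12, and their share per column ranged from 1.81% to 3.48% and from 1.56% to 3.50%, so the sides overlapped throughout.

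The 5 genes were *Pde6c* itself (0.66), *Gnat2* (0.59), the cone transducin alpha subunit, *Opn1sw* (0.56), *Gnb3* (0.50), the transducin beta subunit, and *Opn1mw* (0.39). *Opn1sw* had 2692 counts against 4243, with column means of 21.8, 38.6 and 62.9 per 10000 (lowest, median and highest) in columns 1 to 6 and 28.6, 72.6 and 131 in columns 7 to 12. *Gnat2* had 146 against 363 counts, with column means of 0.591 to 5.88 against 4.35 to 10.0. Both were higher in columns 7 to 12 in 7 of 8 rows, with overlapping columns. *Opn1mw* had 2227 against 2604 counts, a ratio of 1.13 per total count, and a median of 1 count per cell on either side. Its column means were 15.1 to 50.7 in columns 1 to 6 and 117, 89.4, 3.95, 68.2, 4.91 and 4.95 in columns 7 to 12, so 3 of the latter lay above and 3 below every column of the other side. *Pde6c*, the mutated gene, had 25 counts in 4 cells against 44 in 13 cells. D09 held 25 of its counts, and the log-fold without that well was 0.21.

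The other cone markers lay within the limit. *Cnga3* (0.24) and *Cngb3* (-0.29), the channel subunits, were sparse, at 8 against 19 and 62 against 41 counts, and E01 held 41 of the *Cngb3* counts. *Arr3* (0.19), cone arrestin, *Guca1a* (0.02), which regulates guanylate cyclase, *Gngt2* (0.01), the transducin gamma subunit, and *Pde6h* (-0.04), the inhibitory phosphodiesterase subunit, had 664 against 677, 2767 against 2426, 3789 against 3670, and 923 against 705 counts. *Gngt2*, the most evenly spread, had column means of 52.1 to 72.6 per 10000 against 42.7 to 105.

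Several rod genes were lower in columns 7 to 12. Of 13 rod markers that passed the filter, of 14 listed, 6 were beyond the limit in columns 1 to 6 and none in columns 7 to 12 (median -0.28, the lowest of the 36 lists, and -0.73 to -0.08 over all alternatives). Over all genes, 15.9% and 14.7% were so. In either direction the share was 46.2% of the 13, against 54.6% of genes with 81 or more counts. Together the rod markers took 0.525% of counts against 0.343%, with column shares of 0.299% to 0.810% and 0.267% to 0.420%. *Gnat1* (-1.04) had the same direction in all 8 rows and no overlap of columns: its means were 1.01, 2.63 and 6.00 per 10000 in columns 1 to 6 and 0.068, 0.325 and 0.944 in columns 7 to 12. It had 160 counts in 33 cells against 18 in 13 cells, and G02 held 80 of them.

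*Cnga1*, a subunit of the rod channel, had 45 against 4 counts. *Pde6g*, the inhibitory subunit of the rod phosphodiesterase, had a lower mean per cell in columns 7 to 12 (-0.69) but more counts there (617 against 431). Column 5 had a mean of 113.9 per 10000, the other columns had 3.79 to 20.4, and without column 5 the log-fold was 0.38. *Cnga1* and *Pde6g* were chosen after their values were seen. *Prph2* (0.21), the highest of the list, is a disc protein that cones make as well, and it had 292 against 96 counts while its mean per cell was higher in columns 7 to 12. In these counts, RNA from rods and expression in cones cannot be told apart.

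Glial and other retinal genes were scarce. Of 9 Müller glia markers tested, 3 were beyond the limit on each side (median 0.12), with 756 counts against 571. *Gfap* (0.95), the intermediate filament of reactive glia, had 4 counts in 2 cells against 65 in 15 cells, and its column means did not overlap. C08 held 34 of these counts, and the log-fold without it was 0.33. *Glul*, glutamine synthetase of the same cells, had 2 counts against 40. *Clu* (-0.70), the lowest of the list, had 125 against 107 counts. Bipolar cell markers took 95 and 94 counts in all, from *Otx2* (0.48), which photoreceptors express too, to *Prkca* (-0.33). Amacrine, ganglion cell and pigment epithelium markers took 25 and 38, 43 and 44, and 9 and 14 counts. Their members lay within the limit, from *Slc6a9* (0.06) to *Slc32a1* (-0.11), *Pou4f1* (0.17) to *Rbpms* (-0.06), and *Lrat* (0.09) to *Ttr* (-0.11). Blood markers had 4 and 2 counts, and no microglia marker passed the filter on 3 cells. Their part in the differences between sides was not tested.

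*Xist*, the RNA that coats the inactive X chromosome of female cells, had 22 counts in 16 of 39 cells against 244 in 28 of 43 cells (log-fold 1.28). Its column means were 0.0498, 0.495 and 5.16 per 10000 in columns 1 to 6 and 0.713, 3.998 and 27.4 in columns 7 to 12, so the columns overlapped, and 6 of 8 rows were higher in columns 7 to 12. No cell of columns 1 to 6 held more than 4 counts, whereas 6 cells of columns 7 to 12 held 10 or more, up to 58 in E11, and the log-fold without that well was 0.55. The Y-linked genes were near the floor on both sides, with 6 against 3 counts of *Ddx3y* (-0.23), 13 against 14 of *Kdm5d* (-0.07) and 4 against 3 of *Uty* (0.02). *Tsix*, which overlaps *Xist* on the other strand, had 30 against 25 counts (-0.03). The sex of the animals is not given in the labels, and whether the sides held cells of different animals was not tested.

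Transcription factors and synaptic genes of photoreceptors went both ways. Of 12 photoreceptor transcription factors tested, 2 were higher in columns 7 to 12 and 4 in columns 1 to 6 (median -0.20), the lowest being *Neurod1* (-0.89), with 215 counts in 25 cells against 35 in 12 cells. Ribbon synapse genes were split 5 to 6 among 20 (median 0.02). *Cabp4* (-1.33), a calcium-binding protein of the photoreceptor terminal, had 263 counts against 26, and *Vamp2* (0.85), a synaptic vesicle fusion protein, had 52 against 255. Outer segment and cilium genes were split 4 to 6 among 21 (median -0.05), from *Tpgs2* (1.07), higher in columns 7 to 12 in all 8 rows, to *Rom1* (-0.66), the disc-rim partner of peripherin, with 1098 against 467 counts. Among opsin and dorsoventral patterning genes, 3 were higher in columns 7 to 12 and 1, *Nr2f2* (-0.36), in columns 1 to 6.

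Subunits of complex I of the respiratory chain were found on either side. Of 36 nuclear-encoded subunits, 13 were higher in columns 7 to 12 and 8 in columns 1 to 6 (median 0.06), so 58.3% were beyond the limit against 30.6% of all genes and 54.6% of genes with 81 or more counts. The subunits together nevertheless took 1.64% of counts in columns 1 to 6 and 1.71% in columns 7 to 12. *Ndufs8* (1.54) was the highest. *Ndufb7* had 34 against 251 counts, *Ndufv1* had 125 against 432, and *Ndufc1* had 101 against 785. In the opposite direction, *Ndufa2* had 1353 against 714 counts and *Ndufa4* had 1083 against 681. *Ndufa6* (-1.57) was the lowest, with 170 against 72 counts, but one shallow well, D05, held 40 of them and the log-fold without it was -0.54. These subunits other than *Ndufs8* and *Ndufa6* were chosen after their values were seen.

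The same held for the other mitochondrial assemblies. Complex III was split 3 to 3 among 12, from *Uqcc3* (1.22), an assembly factor with 33 against 330 counts, to *Uqcr11* (-0.81), with 509 against 108. Complex IV was split 4 to 5 among 14 and took 1.10% against 0.814% of counts. *Cox6b1* (-0.83) had 692 against 321 counts with no overlap of columns. Its testis-type paralogue *Cox6b2* (0.48) rested on C08, without which its log-fold was -0.02. ATP synthase was split 3 to 7 among 15, with *Atp5f1* (1.06, 48 against 185 counts) and *Atp5d* (-0.93, 213 against 24 counts) at the ends, each in the same direction in all 8 rows. Complex I assembly factors were split 3 to 2 among 6, between *Ndufaf2* (0.59) and *Ndufaf5* (-0.93). Their median of 0.30 was the highest of the 36 lists, but it ranged from -0.01 to 1.01 over the alternatives.

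Mitochondrial ribosomal proteins were split 20 to 15 among 71, with *Mrpl12* (2.28) and *Mrpl16* (-1.29) at the ends. Import proteins were split 8 to 5 among 18, between *Timm50* (0.88, but 0.46 without D09) and *Timm22* (-0.82, but -0.46 without B02). All 8 Chchd proteins were beyond the limit, 4 on each side, from *Chchd1* (0.97) to *Chchd10* (-0.88). Of all genes with 81 or more counts, 54.6% were beyond it. Transcripts of the mitochondrial genome were split 3 to 4 among 13 (1.25% against 0.958% of counts), with *mt-Cytb* (0.73) and *mt-Nd5* (-0.74) at the ends. *mt-Cytb* had 757 against 629 counts, so its direction turned when counts were summed over each side (-0.20).

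**Figure D5:**
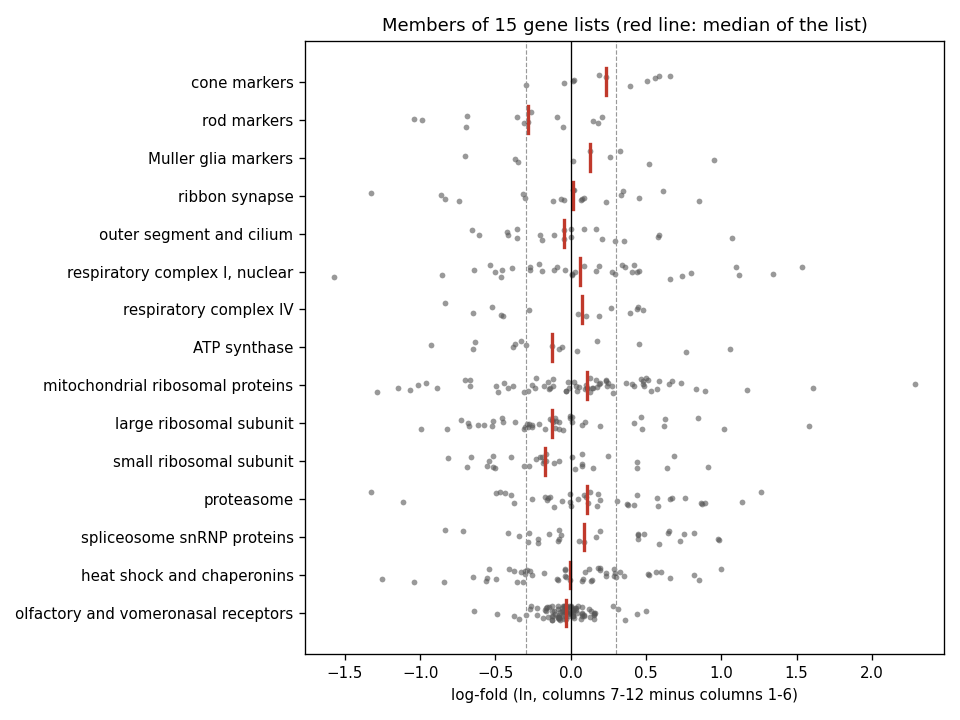
Log-fold (natural log, columns 7 to 12 minus columns 1 to 6) of each member of 15 gene lists detected in 10% or more of the cells of one side; red lines are list medians and dashed lines the limit of 0.3. Members of most lists lie beyond the limit on both sides while the medians stay between -0.28 and 0.24.

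Cytosolic ribosomal proteins took a smaller share of counts in columns 7 to 12. Of 45 large-subunit genes, 8 were higher in columns 7 to 12 and 14 in columns 1 to 6 (median -0.13), and their share of counts was 2.66% against 1.92%, with column shares of 2.38% to 3.11% against 1.61% to 2.74%. Of 32 small-subunit genes, 5 and 10 were beyond the limit (median -0.17), with 1.503% against 1.23% of counts. Their column shares overlapped, at 1.11% to 2.54% against 0.765% to 1.81%. In either direction, 48.9% of the large-subunit and 46.9% of the small-subunit genes were beyond the limit, against 54.6% of genes with 81 or more counts. Both medians stayed below 0 under every alternative, at -0.21 to -0.06 and -0.23 to -0.02. The median over all genes was -0.02 in the main setting. *Rpl5* (1.58), with 39 against 416 counts and no overlap of columns, ran opposite to *Rpl10a* (-0.99), with 465 against 269, and *Rps3a1* (0.91) opposite to *Rps15a* (-0.82). Ribosomal protein genes have many near-identical pseudogene copies, so the counts of single members are uncertain.

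Translation initiation factors were split 7 to 14 among 44 (median -0.13), between *Eif2b5* (1.26, but 0.58 without F10), with 1 count against 124, and *Eif3h*. Proteasome genes were split 15 to 7 among 40 (median 0.11), between *Psmd10* (1.26), of whose 19 counts in columns 7 to 12 D11 held 15, and *Psmd9*. Spliceosome proteins were split 12 to 4 among 29 (median 0.09) and took 0.213% against 0.314% of counts, from *Sf3b2* (0.99) to *Lsm10* (-0.84, but -0.43 without B02). RNA polymerase subunits were split 5 to 6 among 20, from *Polr2j* (0.65) to *Polr2e* (-0.86). Histones were split 3 to 5 among 16, from *Hist3h2a* (0.81) to *H2afz* (-0.72). Genes linked to H3K27 methylation, the mark on which the treated library of the series bears, were sparse. Of 8, only *Rbbp4* (0.32) was beyond the limit, and D12 held 79 of its 86 counts in columns 7 to 12. The lowest was *Jarid2* (-0.18).

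Stress and survival genes were split as well. Apoptosis regulators were 6 to 5 among 19 (median 0.04). *Cflar* (1.47), an inhibitor of caspase-8 activation, had 52 against 187 counts, although A09 held 127 of them, and the log-fold without that well was 0.70. Its direction was the same in all 8 rows. *Trp53* (-1.62) was the lowest, and *Bcl2l1*, an anti-apoptotic partner of the Bcl2 family, had 106 counts in 22 cells against 4 in 3 cells, while the pro-apoptotic *Bad* had 11 against 111, of which A07 held 63, and its log-fold of 0.86 became 0.19 without that well. The last pair was chosen after the values were seen.

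Heat shock proteins and chaperonins were split 10 to 15 among 51, from *Cct5* (0.99), with 5 against 115 counts, to *Dnajc24* (-1.25). Antioxidant enzymes were split 5 to 7 among 20, from *Txn1* (0.80) to *Sod1* (-1.06, but -0.56 without C03), with 146 against 36 counts. Genes of the endoplasmic reticulum were split 9 to 6 among 28, between *Pdia3* (0.53) and *Ddrgk1*. Their share of counts went the other way, at 0.370% in columns 1 to 6 and 0.253% in columns 7 to 12. Immediate early genes were split 4 to 4 among 14, between *Egr1* (1.09, but 0.28 without E12) and *Nr4a1* (-0.82). Glycolysis was split 3 to 3 among 18, between *Eno2* and *Pgk1* (-0.64), and the vacuolar proton pump 4 to 2 among 13, between *Atp6v1e1* and *Atp6v1f* (-0.61). Inflammatory genes were split 2 to 2 among 7, between *Gfap* and *Lcn2*. Imprinted and long noncoding RNAs were split 3 to 3 among 11, with *Airn* (1.38) the highest, of whose counts A09 held 117 of 174 and whose log-fold without it was 0.43.

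Olfactory and vomeronasal receptors, which have no known role in cones and serve here as genes that cones should scarcely express, took 0.607% of counts in columns 1 to 6 and 0.606% in columns 7 to 12. Of the 92 that passed the filter, 4 were beyond the limit in each direction, from *Olfr1185-ps1* (0.50) to *Olfr984* (-0.64). That share of 8.70% lay between the 6.33% of all genes with 4 to 15 counts and the 19.3% of those with 16 to 32 counts. Of 243 receptors with a count in 3 cells or more, 92 were thus detected in 10% or more of the cells of a side.

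The 2 lists of 50 marker genes published for clusters of cells from this series divided by plate side. Of the first, 49 were beyond the limit in columns 1 to 6 and none in columns 7 to 12 (median -0.87), and the genes took 3.83% against 1.51% of counts, with column shares of 3.03% to 5.03% against 0.976% to 1.95%. Of the second, all 50 were beyond the limit in columns 7 to 12 (median 1.13), with 1.59% against 3.77% of counts and column shares of 0.929% to 2.79% against 3.30% to 4.26%. The exception in the first list was *Rex1bd* (0.12), and the lowest of the second was *Gstp1* (0.48). These lists were chosen on the same cells, so their direction is not independent evidence of a difference between sides.

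Genes higher on either side resembled each other in gene structure. The 8753 tested genes with a GENCODE vM21 transcript (99.2% of 8823) had a median longest transcript of 3573 nt. The genes consistent in all 8 rows were shorter on both sides, at 2694.5 nt for 234 of the 235 higher in columns 7 to 12 and 2568 nt for the 193 higher in columns 1 to 6, and their GC content was 50.9% and 50.6% against 49.7% over all genes. They held a median of 103 and 101 counts against 33, and 0% of the genes with 4 to 15 counts were consistent in all 8 rows. The log-fold had no relation to GC content (Pearson's r 0.00, Spearman's correlation 0.00) or to log2 length (0.01 and 0.02) across 8753 genes. Protein-coding genes made up 97.4% and 95.3% of the row-consistent genes, against 94.1% of all. Genes with counts on 1 side only were shorter still, with medians of 2092.5 nt in columns 7 to 12 and 1838 nt in columns 1 to 6. Genes are not independent replicates, and these values describe the tested set.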

How the data were processed

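Single-cell RNA-seq was performed on GFP-sorted cones, 1 cell per well, and the uninjected library alone was used. The authors deposited raw counts per gene and cell, unnormalized. Per the study's methods, reads were demultiplexed by plate and cell barcode, aligned with the CLC Genomics Workbench, freed of PCR duplicates by UMI, counted with featureCounts on a Gencode annotation, and 3' and 5' counts were summed. The methods and labels name the genome as GRCh38, a human build number, for mouse reads. Coordinates, strands and transcript lengths here are from GENCODE vM21 (GRCm38), matched by symbol. Strand use in counting is not given in the sources used here, and the batch correction of the methods was not applied. No doublet caller was run.

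Genes with a count in at least 3 uninjected cells (13189 of 17774) and cells with 200 or more genes and no more than 5% mitochondrial counts were kept. Counts were scaled to 10000 per cell, and the log-fold was ln(mean + 1) of columns 7 to 12 minus columns 1 to 6, with a limit of 0.3 and detection in at least 10% of cells of either side. With 1 library, no test was made and no p-value is given. Intervals are exact Poisson, or for ratios exact binomial, at 95%, and cover counting error only, as does the floor of 3 counts. Named genes were the 12 highest and 12 lowest log-folds among genes in at least 25% of cells with the same direction in all 8 rows, the highest and lowest of each gene list, and every sex chromosome and cone marker gene. A few single genes that met this rule are left out. Members and lists were chosen with earlier results of these data known. Total counts per kept cell were 854 to 97803, and single shallow wells can decide a mean. The alternatives were summed counts, median-ratio factors, thinning to 1406 counts, a pseudocount of 0.1, other cell and gene filters, scaling without mitochondrial or the top 50 genes, rows A and H left out, and each column left out. The wells 6 columns apart, genes on 1 side only and the 0.7 limit were examined after seeing the data. Python 3.11.15, numpy 2.4.6, pandas 2.3.3, scipy 1.17.1 and matplotlib 3.10.9 were used. The log-fold computation was run on simulated counts drawn independently for each well. These lacked the sharing between wells 6 columns apart, so they say nothing about its effect.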

Additional observations from a re-analysis of the deposited data

How the results depend on the processing

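The counts of genes beyond the limit depended on depth and on the pseudocount. With cells thinned to equal counts, 829 genes were higher in columns 7 to 12 and 799 in columns 1 to 6, 14 had the same direction in all 8 rows and 33 had non-overlapping columns, with 2403 genes tested. With a pseudocount of 0.1, 2873 and 3342 genes were beyond the limit. Using only the deeper well of each pair, chosen after seeing the data, 100 genes had the same direction in all 8 rows and 137 had non-overlapping columns. Leaving out each column in turn gave 1260 to 1371 genes higher in columns 7 to 12, 1348 to 1486 higher in columns 1 to 6, 343 to 409 with the same direction in all 8 rows (146 to 265 and 100 to 206 by side) and 462 to 546 with non-overlapping columns. By side, the row-consistent genes higher in columns 1 to 6 went from 193 to 127, 112 and 100 without columns 1, 3 and 6, and those higher in columns 7 to 12 from 235 to 152 and 146 without columns 9 and 12. The counts of these 4 kinds stayed within 1.5 times under the other alternatives.

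The number of gene lists with a median beyond 0.3, which was 0 of 36, became 1 with thinning, 2 with summed counts, with median-ratio factors, with at least 500 genes per cell, without rows A and H, with the deeper wells, with the 39 complete pairs only and without the genes shared by 1 pair, 3 with at least 2000 counts per cell and without the top 50 genes, 11 with a pseudocount of 0.1, and 0 to 3 with columns left out. *mt-Cytb* reversed to -0.20 with summed counts and to -0.17 with median-ratio factors, and *Cox6b2* to -0.02 without column 8 (-0.0207 to 0.598 over the columns left out). *Pde6g* (-0.69) reversed to 0.29 with summed counts, 0.32 with median-ratio factors, 0.46 with thinning, 0.32 with at least 500 genes, 0.31 with at least 2000 counts and 0.38 without column 5 (-0.86 to 0.38 over the columns left out). The causes were not tested. No other gene given here with a log-fold beyond the limit changed sign. Over all genes beyond the limit, 101 were beyond it on the opposite side with the deeper wells. Thinning gave 34 such genes, and the other alternatives 0 to 28. Depth limits genes with few counts: 2022 of the 8823 tested genes held 4 to 15 counts over all 82 cells. No paired analysis was possible because the labels give 1 uninjected library and no numbers that pair samples. Wells 6 columns apart were set side by side as a description, chosen after seeing the data. In the 39 complete pairs, all 24 leading genes were higher on their own side in more pairs (15 to 35) than on the other (0 to 6). The 24 genes were chosen for size and row direction in these same wells, so this is not independent evidence of a difference. In these pairs, 413 genes had the same direction in all 8 rows.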
